A study of Mus musculus with 7 samples.

Results

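Insulin-like growth factor 1 (IGF1) is a secreted growth factor that binds a receptor tyrosine kinase, IGF1R, whose signal passes through docking proteins such as IRS1 to the PI3K-AKT and RAS-MAPK arms. IGF2R, the cation-independent mannose 6-phosphate receptor, takes up IGF2 and carries it to lysosomes. Most IGF in body fluids is held by binding proteins (IGFBPs), which extend its life and limit its access to the receptor. In the mammary gland IGF1 is made largely by the stroma and acts on the epithelium, and IGFBP5 is known for its rise during involution. The transcripts of 10 genes of this system, out of 50600 counted, are described here. They were taken by gene symbol as the ligand Igf1, the receptors Igf1r and Igf2r, the docking protein gene Irs1 and 6 binding protein genes, Igfbp2 to Igfbp7. Each of the 10 symbols was found in every library.

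RNA came from 3 control mammary glands and from the centre of 4 mammary tumours of ECD transgenic mice. Ecd (ecdysoneless) encodes a cell cycle regulator. The tumours were 2 adenosquamous carcinomas (tumours 1a and 1b), 1 spindle cell carcinoma (tumour 3) and 1 papillary carcinoma (tumour 4). The sources used here give no strain, age, genotype of the control mice, promoter of the transgene or species of origin for it. The design text names the glands and the tumours as independent, yet 2 of the tumours carry the number 1 (1a and 1b), and it is not said whether they grew in 1 animal. The p-values measure only the spread between these samples.

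Library totals ran from 5148438 to 35631279 estimated counts. Transcripts of mitochondrial DNA took between 48.36% and 64.83% of counts in the glands and between 18.34% and 32.61% in the tumours. Mouse Ecd was between 12.7 and 19.1 CPM in glands and between 15.9 and 21.8 CPM in tumours, which does not check the transgene. CPM are counts scaled to a common library size, here after TMM adjustment, which takes most genes as unchanged between libraries. Luminal epithelial markers were present in all 7 libraries (summed over 6 genes, 233 to 478 CPM in glands and 289 to 2295 CPM in tumours). Basal epithelial markers (4 genes) summed to between 28.4 and 53.9 CPM in glands and to 1537, 718, 309 and 21.3 CPM in tumours 1a, 1b, 3 and 4. Skeletal muscle markers (8 genes) reached 13293 and 26560 CPM in glands 1 and 3, against 20.8 CPM in gland 2 and 200 CPM or less in the tumours. In gland 1, the shallowest library, the most GC-rich of 4 equal sets of transcripts differed from the other glands by a median of -0.68 on the log2 scale, and the shortest of 4 sets by -0.47.

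Igfbp3 and Igfbp2 were the members that lay higher in every tumour than in any gland, as did 16.3% of all genes tested. Igf1 was low in 3 of the 4 tumours. In the comparison of all tumours with all glands, 1 of the 10 members passed and rose (Igfbp3), where 3.9% of all 14149 genes tested rose, 4.57% fell and 8.47% passed in either direction. A gene passed when its edgeR quasi-likelihood p, adjusted over all genes by Benjamini-Hochberg, was under 0.05. At unadjusted p under 0.05 stood 3 of the 10 members, against 28.9% of all genes. The median log2 fold change of the members was 0.21, beside 0.12 over all genes tested. All 10 met the filter on low counts, but Igfbp2 did so through its tumour counts alone, so it could only come out higher. Without it, 1 of 9 passed, 2 stood at unadjusted p under 0.05 and the median was 0.05.

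**Figure D1:**
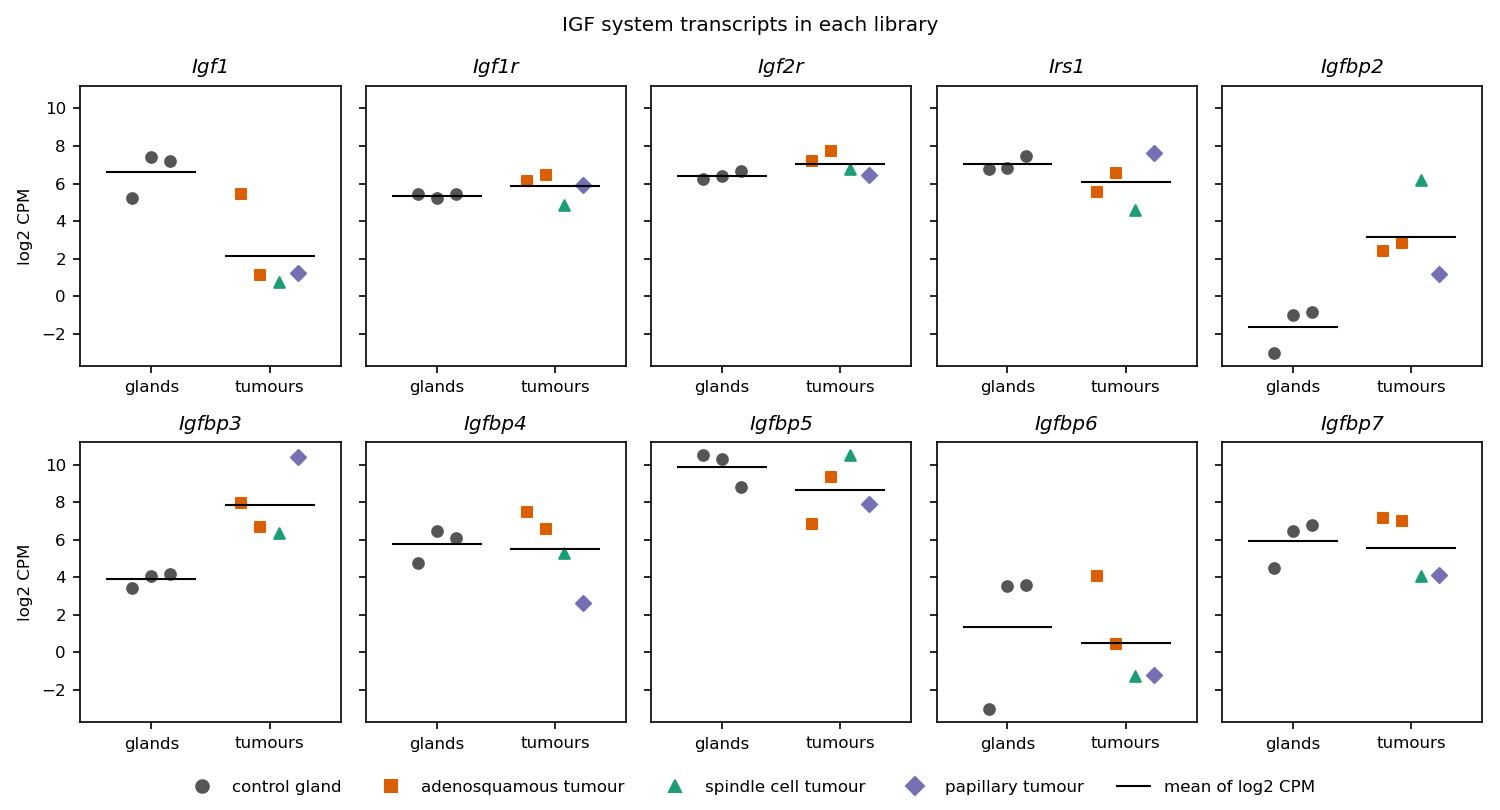
Log2 CPM (prior count 2) of each of the 10 genes in 3 control glands and 4 tumours; points are libraries, shaped by tumour type, and lines are means of log2 CPM. Igfbp2 and Igfbp3 are the genes whose tumours all sit above all glands, as for 16.3% of all genes tested. The Igf1 value of adenosquamous tumour 1a lies among the glands while the other tumours sit below them.

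Igf1, the ligand, was at 37.8, 171 and 149 CPM in glands 1, 2 and 3, and at 43.6, 2.04, 1.58 and 2.26 CPM in tumours 1a, 1b, 3 and 4. Tumours 1b, 3 and 4 were below every gland, whereas tumour 1a was above gland 1, so the groups overlapped. The means were 119 ± 71.5 CPM (SD, n = 3) in glands and 12.4 ± 20.8 CPM (SD, n = 4) in tumours. The log2 fold change was -3.27 (SE 1.3) and did not pass in edgeR's quasi-likelihood test with Benjamini-Hochberg adjustment (adjusted p = 0.148). It passed without adenosquamous tumour 1a (-5.90, adjusted p = 0.0129), in limma-voom (-4.72, 0.0321), where 10.8% of all genes passed, and in DESeq2 (-3.28, 0.0297), where 24.1% did. Against the glands, the 2 adenosquamous tumours alone gave -2.42 (SE 1.26, edgeR adjusted p = 0.252). Igf1 (ENSMUSG00000020053) spans chr10:87858265-87937042 on the plus strand of GRCm38.

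The 8 fat cell markers, among them Adipoq, the gene of the fat hormone adiponectin, summed to 3042, 6424 and 5259 CPM in the glands and to 146, 24.1, 22.7 and 25.6 CPM in tumours 1a, 1b, 3 and 4. All 8 of them fell in edgeR, and tumour 1a had the highest sum of the tumours, as it had for Igf1. Adipoq was at 7.24 CPM in tumour 1a and at 0.136, 0 and 0.0697 CPM in tumours 1b, 3 and 4. Lipe, also of the 8, was instead higher in tumours 3 and 4 (15.7 and 14.3 CPM) than in tumours 1a and 1b (9.02 and 6.12 CPM). Lymphocyte markers (5 genes) were also high in gland 2 (103 CPM) and tumour 1a (57.5 CPM), with at most 6.37 CPM in every other library. The fibroblast sum (8 genes) was 4442 CPM in tumour 1a and between 190 and 1216 CPM elsewhere. Most of the sum in tumour 1a was collagen, with Col1a1 at 1765 CPM and Col3a1 at 2233 CPM, against at most 83.7 and 456 CPM in the glands. Lum (14.6 CPM) and Dpt (5.36 CPM) were below every gland there, and Dcn (237 CPM) was within their range. Their part in the Igf1 values was not tested. In RNA of whole tissue, fewer cells of a type and less RNA per cell cannot be told apart.

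The receptors varied least of the members over the 7 libraries (root mean square spread of log2 CPM 0.52 for Igf1r and 0.48 for Igf2r, against 0.99 or more for the rest). Igf1r, the kinase receptor, was at 42.8, 37.0 and 42.7 CPM in the glands and at 71.1, 88.2, 29.3 and 61.6 CPM in tumours 1a, 1b, 3 and 4. The spindle cell tumour was below every gland and the other 3 tumours were above. The log2 fold change was 0.61 (SE 0.37, edgeR adjusted p = 0.310), and for the adenosquamous tumours alone 0.89 (SE 0.26, edgeR adjusted p = 0.0840), so neither passed. Igf2r was at 76.0, 83.0 and 99.98 CPM in the glands and at 147, 212, 109 and 89.0 CPM in the tumours. Only the papillary tumour lay within the range of the glands, and the other tumours were above it. Igf2r gave 0.69 (SE 0.35, edgeR adjusted p = 0.231) over all tumours and 0.99 (SE 0.31, edgeR adjusted p = 0.0946) in the adenosquamous tumours. DESeq2 called both receptors in the adenosquamous comparison (adjusted p = 0.0109 for Igf1r and 0.00791 for Igf2r), where it called 24.2% of all genes. Igf1r (ENSMUSG00000005533) lies at chr7:67952827-68233668, plus strand, and Igf2r (ENSMUSG00000023830) at chr17:12682406-12769664, minus strand.

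Irs1, the docking protein gene (ENSMUSG00000055980, chr1:82233101-82291416, minus strand), was at 111, 113 and 179 CPM in the glands and at 47.5, 92.8, 24.2 and 198 CPM in tumours 1a, 1b, 3 and 4. The adenosquamous and spindle cell tumours were below every gland and the papillary tumour was above. With tumours on both sides of the glands, the log2 fold change was -0.57 (SE 0.66, edgeR adjusted p = 0.601). The adenosquamous tumours alone gave -1.0 (SE 0.42, edgeR adjusted p = 0.175). Neither passed.

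The upstream sequences of Igfbp3 and Igfbp2 are shown because these 2 members were above all glands in each tumour, as were 16.3% of all genes tested. Both are the 250 bases before the RefSeq start on GRCm38.p6, 5′ to 3′ on the strand of the gene, with capitals for matches on either strand to the TATA box TATAAA, its variant TATATA, the GC box GGGCGG or the E-box CACGTG. The Igfbp3 stretch is chr11:7213924-7214173 (minus strand) and that of Igfbp2 is chr1:72824230-72824479 (plus strand, the first of 2 RefSeq starts).
Igfbp3: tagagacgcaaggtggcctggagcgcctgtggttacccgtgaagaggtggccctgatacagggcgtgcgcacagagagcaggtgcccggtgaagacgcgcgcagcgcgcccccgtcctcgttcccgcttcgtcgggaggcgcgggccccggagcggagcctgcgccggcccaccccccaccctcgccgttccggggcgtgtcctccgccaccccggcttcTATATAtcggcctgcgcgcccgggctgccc
Igfbp2: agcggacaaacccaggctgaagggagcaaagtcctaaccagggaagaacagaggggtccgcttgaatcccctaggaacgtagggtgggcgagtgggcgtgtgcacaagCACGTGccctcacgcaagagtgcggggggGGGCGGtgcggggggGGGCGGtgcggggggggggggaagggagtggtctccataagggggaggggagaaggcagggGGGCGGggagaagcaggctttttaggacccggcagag
Igfbp3 has 1 match, TATATA, from 30 to 25 bases before the start. Igfbp2 has 3 GGGCGG matches and 1 CACGTG, from 142 to 137 bases before the start, and no TATAAA or TATATA. The 2 stretches share none of the 4 motifs. Among 32851 RefSeq stretches of this length, 5.25% hold TATATA, 12.4% hold TATAAA, 32.7% hold GGGCGG and 6.02% hold CACGTG. Igfbp3 has 32 CG pairs and Igfbp2 14, beside a median of 6 over all stretches. These are matches of letters, not measured sites.

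Igfbp3 encodes the main IGF carrier of the circulation. Its values were 10.6, 17.0 and 17.7 CPM in the glands and 247, 104, 83.0 and 1340.5 CPM in tumours 1a, 1b, 3 and 4. Every tumour was above every gland, and the papillary tumour was far above the other tumours. The means were 15.1 ± 3.91 CPM (SD, n = 3) in glands and 444 ± 602 CPM (SD, n = 4) in tumours, and Igfbp3 rose 29.2-fold (log2 4.87, SE 1.18, edgeR adjusted p = 0.0475). Without the papillary tumour the log2 fold change was 3.20 (adjusted p = 0.0181). The call was lost when any other library was left out, with edgeR adjusted p of 0.162, 0.134 and 0.157 without glands 1, 2 and 3 and of 0.0632, 0.0625 and 0.0501 without tumours 1a, 1b and 3. Between 0.654% and 5.9% of all genes passed in the fits that lost the call, against 8.47% with every library. In limma-voom Igfbp3 gave 3.8 and did not pass (adjusted p = 0.0568). With transcripts of mitochondrial DNA left out before scaling, it was 4.87 (adjusted p = 0.0491). Igfbp3 (ENSMUSG00000020427) lies at chr11:7206086-7213923, minus strand.

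Igfbp2, a binding protein with a higher affinity for IGF2, was all but missing from the glands. It had 0, 12 and 9 counts in glands 1, 2 and 3 (0, 0.378 and 0.427 CPM), where 0 counts in gland 1 allow up to 1.06 CPM. The tumours had 61, 51, 750 and 61 counts, or 5.19, 6.94, 73.9 and 2.13 CPM in tumours 1a, 1b, 3 and 4. Every tumour was above every gland, with the spindle cell tumour highest and the papillary tumour lowest. The log2 fold change was 5.97 (SE 1.59) and did not pass (edgeR adjusted p = 0.0605). Igfbp2 met the filter on low counts through its tumour counts alone, so it could only come out higher. It passed without the papillary tumour (6.27, edgeR adjusted p = 0.0350), where 9.88% of all genes passed. Without the spindle cell tumour it was 3.82 (edgeR adjusted p = 0.0556), where 3.84% of all genes passed. Igfbp2 (ENSMUSG00000039323, chr1:72824503-72852474, plus strand) has Igfbp5 as its neighbour, 5457 bases away.

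All tumours above all glands held for 2 of the 10 members, Igfbp2 and Igfbp3, as for 16.3% of all genes, and all tumours below for none, as for 13.2%. In either direction 29.5% of genes did not overlap. In the 2 adenosquamous tumours against the glands Igfbp3 passed among the 9 members other than Igfbp2, where 5.01% of 14708 genes rose, 5.36% fell and 10.4% passed in either direction. At unadjusted p under 0.05 were 3 of these 9, against 29.9% of all genes. Igfbp3 rose 11.1-fold there (log2 3.47, SE 0.46, edgeR adjusted p = 0.0194). Igfbp2 also passed (log2 4.07, SE 0.73, edgeR adjusted p = 0.0287), in a test it entered through its tumour counts alone. With no filter on low counts it passed too (4.08, edgeR adjusted p = 0.00652), where 9.34% of all genes passed. Both calls were lost in edgeR without gland 3 (adjusted p = 0.0586 for Igfbp3 and 0.0772 for Igfbp2), where 0 of 14034 genes passed. That of Igfbp3 was also lost without gland 1 (edgeR adjusted p = 0.0511), where 4.2% of genes passed. Leaving out tumour 1a or 1b leaves 1 adenosquamous library, so no call was read from those fits. Igfbp3 ran from 2.72 to 4.01 on the log2 scale over 12 alternatives. The adenosquamous and the all-tumour comparisons share their glands and 2 tumours. Basal markers were highest in tumours 1a and 1b. The luminal sum was highest in the papillary tumour (2295 CPM), which held most Igfbp3. Krt18, Krt19 and Elf5 were highest there, while Epcam and Cdh1 were highest in the spindle cell tumour and Krt8 was alike in both (287 CPM). The part of basal and luminal markers in these values was not tested.

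**Figure D2:**
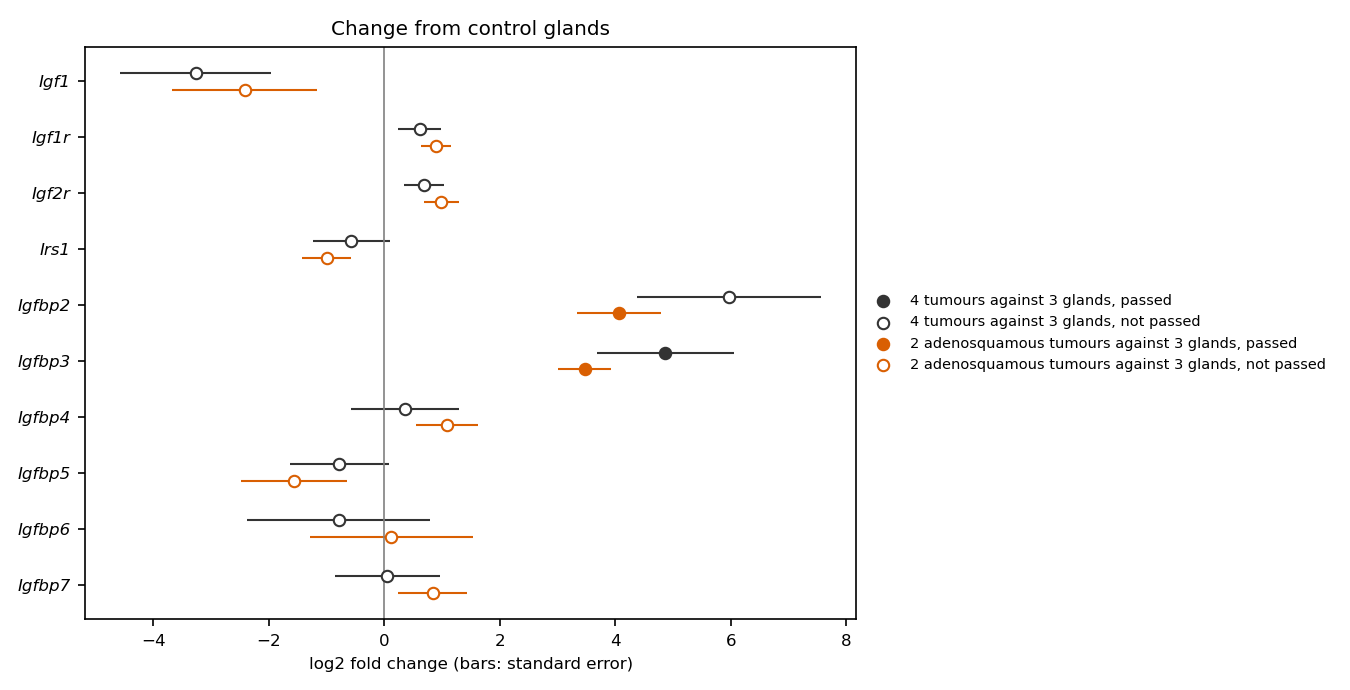
Log2 fold change with its standard error (bars) of each gene, for 4 tumours against 3 glands and for 2 adenosquamous tumours against 3 glands; filled points passed in edgeR. Igfbp3 is filled in both comparisons (4.87 and 3.47) and Igfbp2 in the adenosquamous one (4.07).

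Igfbp4, Igfbp7 and Igfbp6 gave log2 differences of 2.56, 2.97 and 4.83 between adenosquamous and other tumours and of 0.36, 0.05 and -0.79 between all tumours and glands, and none of these passed. Igfbp4, which limits IGF action and is cut by the protease PAPP-A, was at 26.5, 87.9 and 69.3 CPM in the glands and at 177, 94.0, 39.1 and 6.17 CPM in tumours 1a, 1b, 3 and 4. The adenosquamous tumours were above every gland, the spindle cell tumour was within their range and the papillary tumour was below it. Igfbp4 gave 0.36 (SE 0.94, edgeR adjusted p = 0.827) over all tumours, a sign that turned without tumour 1a (-0.39). Igfbp4 (ENSMUSG00000017493) lies at chr11:99041244-99054392, plus strand.

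Igfbp7 encodes a secreted protein of vessels and stroma that binds IGFs weakly. It was at 22.6, 89.0 and 109 CPM in the glands and at 144, 127, 16.5 and 17.6 CPM in tumours 1a, 1b, 3 and 4. Both adenosquamous tumours were above every gland and both other tumours below, and the log2 fold change over all tumours was 0.05 (SE 0.91, edgeR adjusted p = 0.979). Its sign turned without gland 1 (-0.38), tumour 1a (-0.44) or tumour 1b (-0.28). The difference between the adenosquamous and the other tumours was 2.97 (SE 0.70) and did not pass (edgeR adjusted p = 0.121). Igfbp7 (ENSMUSG00000036256, chr5:77349240-77408041, minus strand) shares exon bases with Polr2b on the other strand, so reads there cannot be told apart without strand.

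Igfbp6, a binding protein that prefers IGF2, had 0 counts in gland 1, 11.5 and 12.1 CPM in glands 2 and 3, and 16.9, 1.22, 0.296 and 0.314 CPM in tumours 1a, 1b, 3 and 4. Tumour 1a was above every gland, and the other tumours were below glands 2 and 3. Since 0 counts in gland 1 allow up to 1.06 CPM, tumours 3 and 4 cannot be placed above or below that gland. The log2 fold change was -0.79 (SE 1.59, edgeR adjusted p = 0.772). Gland 1 was thus below glands 2 and 3 by more than counting allows. Igfbp6 (ENSMUSG00000023046, chr15:102144362-102149511, plus strand) has a short transcript of 60.7% GC, and such transcripts were low in gland 1. Igfbp2, Igfbp4 and Igfbp7 are also in the most GC-rich set. The part of this in their values was not tested.

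Fibroblast and endothelial markers varied over the libraries beside these 3 genes. The fibroblast sum was 407, 1124 and 1216 CPM in the glands and 4442, 1146, 241 and 190 CPM in tumours 1a, 1b, 3 and 4. The endothelial sum (7 genes) was 217, 285 and 349 CPM in the glands and 245, 123, 67.8 and 39.1 CPM in the tumours. Both sums were lowest in the spindle cell and papillary tumours, where Igfbp6 and Igfbp7 were low too. The fibroblast sum in tumour 1b was mostly Col1a1 (602 CPM) and Col3a1 (503 CPM). Dcn (81.8 against 12.5 CPM), Lum (3.25 against 1.22 CPM) and Dpt (0.296 against 0 CPM) were higher in the spindle cell tumour than in tumour 1b. Pdgfra, Pi16, Fbln1, Col1a1 and Col3a1 were lower there. All 7 endothelial markers had counts in every library, and Dpt was the fibroblast marker at 0 in 1 tumour (1b). Their part in the Igfbp4, Igfbp6 and Igfbp7 values was not tested.

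**Figure D3:**
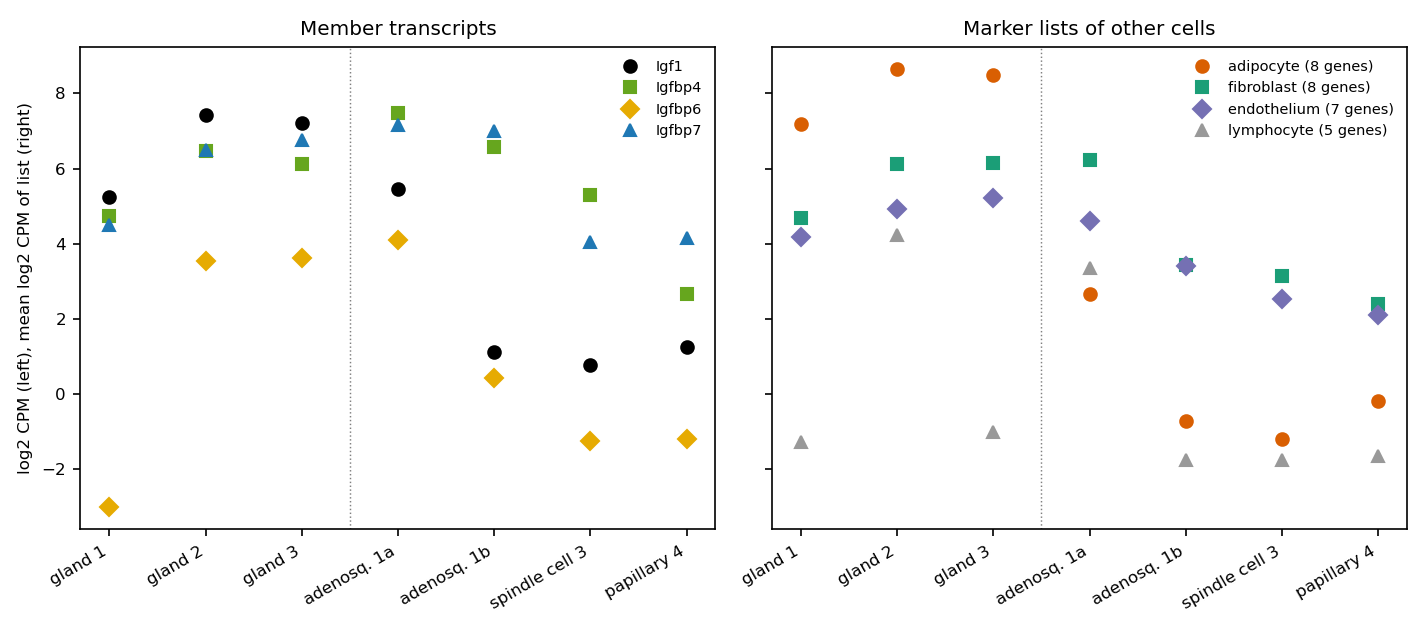
Left, log2 CPM of Igf1, Igfbp4, Igfbp6 and Igfbp7 in each of the 7 libraries; right, mean log2 CPM of the adipocyte, fibroblast, endothelial and lymphocyte marker lists in the same libraries; the dotted line parts glands from tumours. Igfbp6 and Igf1 are higher in tumour 1a than in the other tumours, and so is the mean of each list drawn.

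Igfbp5, the binding protein of involution, was at 1456, 1290 and 451 CPM in the glands and at 113, 653, 1471 and 244 CPM in tumours 1a, 1b, 3 and 4. The spindle cell tumour was as high as the highest gland, tumour 1b was within their range, and tumours 1a and 4 were below it. The means were 1066 ± 539 CPM (SD, n = 3) and 620.2 ± 612 CPM (SD, n = 4), and the log2 fold change of -0.78 (SE 0.86) did not pass (edgeR adjusted p = 0.580). Skeletal muscle markers summed to 13293, 20.8 and 26560 CPM in glands 1, 2 and 3, and their part in the Igfbp5 values was not tested. Igfbp5 (ENSMUSG00000026185) lies at chr1:72857932-72874884, minus strand.

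Per kilobase of merged exons, the scale on which different genes can be compared, the 6 binding protein genes summed to 271, 324 and 197 CPM per kb in the glands and to 275, 273, 334 and 486 CPM per kb in tumours 1a, 1b, 3 and 4. The sums thus varied far less than their make-up. Igfbp5 made up 89.6%, 66.2% and 38.0% of the sum in the glands and 6.83%, 39.8%, 73.3% and 8.35% in the tumours. Igfbp3 made up 1.25%, 1.67% and 2.87% in the glands and 28.7%, 12.1%, 7.93% and 88.1% in the tumours. The papillary tumour thus held almost only Igfbp3, and the spindle cell tumour mostly Igfbp5, with Igfbp2 at 12.0%. Igfbp7 made up 43.3% and 38.6% in the adenosquamous tumours, 4.07% and 2.99% in tumours 3 and 4, and between 6.92% and 45.5% in the glands. These shares are descriptions, since a rise of 1 gene lowers the shares of the rest.

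**Figure D4:**
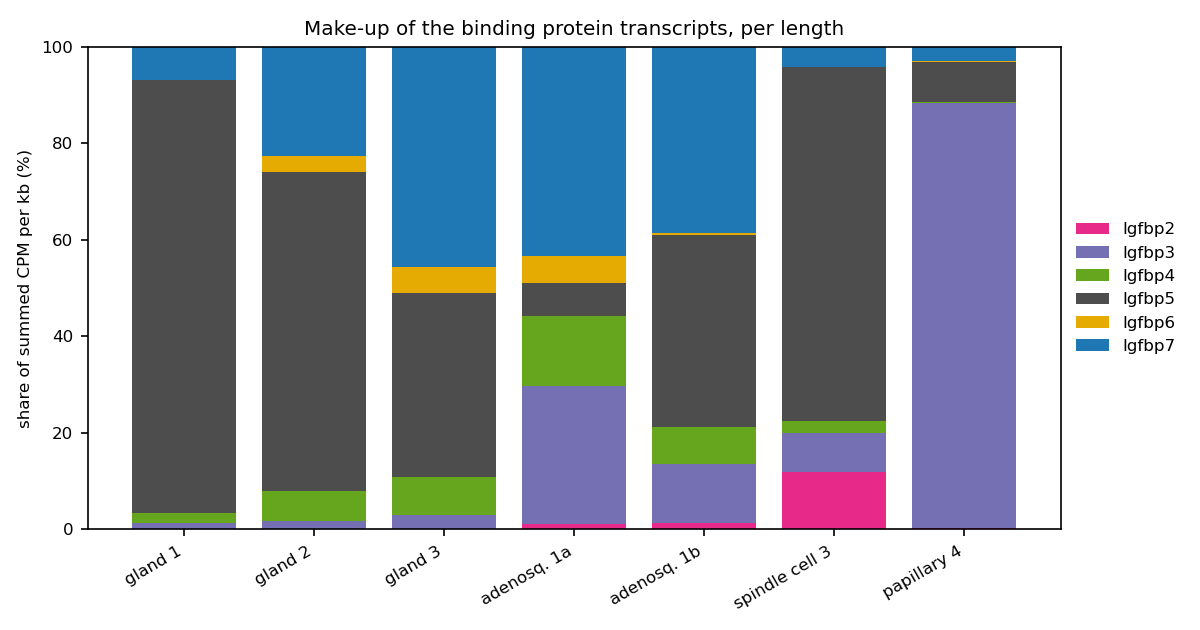
Share of each of 6 binding protein genes in their summed CPM per kb of merged exons (percent), for 3 glands and 4 tumours. Igfbp5 fills 89.6% of gland 1, Igfbp3 fills 88.1% of papillary tumour 4, and Igfbp7 holds the largest share in gland 3 and adenosquamous tumour 1a.

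In the order of mean levels per kb, the glands ran from Igfbp5 (177 ± 89.7 CPM per kb, SD, n = 3) and Igfbp7 (60.7 ± 37.3) through Irs1, Igfbp4, Igf1, Igf2r, Igfbp6 and Igfbp3 to Igf1r (2.43 ± 0.197) and Igfbp2 (0.145 ± 0.126). Neighbours in this order overlapped in their ranges over the glands, except Igfbp3 and Igf1r, and Igf1r and Igfbp2. Within each gland, though, Igfbp7 was above Irs1 and Igfbp4 above Igf1. In the tumours the order of means was Igfbp3 (142 ± 192 CPM per kb, SD, n = 4), Igfbp5, Igfbp7, Igfbp4, Igf2r, Igfbp2, Irs1, Igfbp6, Igf1r and Igf1 (1.25 ± 2.10). Every pair of neighbours overlapped in their ranges over the tumours, though Igfbp7 was above Igfbp4 within each tumour. Igf1 was the lowest of the 10 per kb in tumours 1b, 3 and 4, and ranked 4, 5 and 6 in glands 2, 3 and 1. Igfbp5 ranked first in 4 of the 7 libraries (glands 1 and 2, tumours 1b and 3), Igfbp7 in gland 3 and tumour 1a, and Igfbp3 in the papillary tumour. With the longest transcript as the length, the gene ranked first did not change in any library. Igf1 then ranked 3 in glands 2 and 3 and 6 in gland 1, and in the papillary tumour it ranked 9, above Igfbp6.

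Between the tumour types, 0 of the 10 members passed in edgeR when adenosquamous tumours were compared with the spindle cell and papillary tumours together, as did 0.0% of 15282 genes. At unadjusted p under 0.05 stood 5 members, against 16.8% of all genes. These were Igfbp7 (log2 difference 2.97), Igf1 (3.52), Igfbp6 (4.83), Igfbp4 (2.56) and Igf2r (0.83), all higher in the adenosquamous tumours. DESeq2 called 4 members and 9.97% of all genes, and limma-voom 0 members and 0.0458% of all genes. The difference of Igf1 was 0.01 without tumour 1a, so it rested on that library. Igfbp6 was also far higher in tumour 1a (16.9 CPM) than in tumour 1b (1.22 CPM), and its difference ran from 1.92 to 5.7 over 14 alternatives. The other 2 tumours are of different types, and their spread holds that difference.

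With 1 library each, the spindle cell and papillary tumours have no replicate check. In the spindle cell tumour 5 of the 10 members were at least 2 from the gland mean on the log2 scale, where 17.2% of all genes were. These were Igfbp2 (7.84), Igfbp3 (2.48), Irs1 (-2.43), Igf1 (-5.86) and Igfbp6 (-2.63). In the papillary tumour 5 of 10 were past that fold, where 23.0% of all genes were. These were Igfbp3 (6.50), Igfbp2 (2.80), Igfbp4 (-3.12), Igf1 (-5.37) and Igfbp6 (-2.57). Both counts take in Igfbp2, which met the filter through its tumour counts alone and could only come out higher. Both also take in Igfbp6, which lay within the log2 range of the glands (SD 3.81). Without these genes, Igfbp3, Irs1 and Igf1 remain in the spindle cell tumour, and Igfbp3, Igfbp4 and Igf1 in the papillary tumour. For Igfbp6, both tumours were below glands 2 and 3 and under what 0 counts allow in gland 1; for Igfbp6 and Igfbp2, which have 0 counts in gland 1, these differences depend on the prior count of 2. The spindle cell tumour thus had most Igfbp2 and least Irs1, and the papillary tumour most Igfbp3 and least Igfbp4.

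Of 8 other genes of the family, 5 could be tested and 1 fell, where 4.57% of all genes fell. Irs3, a docking protein gene of rodent fat cells, was at 5.31, 3.56 and 6.87 CPM in the glands and at 0.340, 0.136, 0.0985 and 0.279 CPM in the tumours (log2 -4.50, SE 0.56, edgeR adjusted p = 0.00943). It did not pass without gland 3 (edgeR adjusted p = 0.0564), where 0.654% of all genes passed. Igf2 and Irs2, named after their values were seen, did not pass, and were highest in the papillary tumour. Igf2 was at 96.0 CPM there and between 0.788 and 14.7 CPM in every other library. Irs2 was at 214 CPM there and between 10.1 and 43.7 CPM elsewhere. Igfbp1, the binding protein of liver, had 2 counts in the papillary tumour and 0 in every other library.

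Of 5 genes for IGFBP proteases and their inhibitors, 4 could be tested and 1 fell, where 4.57% of all genes fell. Stc2, whose product stanniocalcin 2 inhibits PAPP-A, was at 34.7, 66.8 and 85.9 CPM in the glands and at 7.15, 11.0, 3.94 and 3.66 CPM in the tumours (log2 -3.29, SE 0.50, edgeR adjusted p = 0.0132). It did not pass without gland 3 (edgeR adjusted p = 0.0578), where 0.654% of all genes passed. Of 8 genes of the growth hormone axis, which drives Igf1 transcription in liver, 7 could be tested and 1 fell, beside the same 4.57%. Ghr, the growth hormone receptor, was at 200, 412 and 423 CPM in the glands and at 20.003, 15.8, 27.0 and 75.1 CPM in the tumours (log2 -3.32, SE 0.62, edgeR adjusted p = 0.0233). The edgeR call of Ghr was lost without gland 1 (0.0571), gland 2 (0.0623), gland 3 (0.0911), tumour 1b (0.0601) or tumour 3 (0.0626). Between 0.654% and 3.85% of all genes passed in these fits. For Irs3, Stc2 and Ghr every tumour was below every gland, as was the sum of fat cell markers, whose part was not tested.

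Over 5 lists of genes around the members, 4 of 57 tested genes passed (7.02%) and 16 stood at unadjusted p under 0.05 (28.1%), shares near the 8.47% and 28.9% of all genes. Of 23 genes of the PI3K-AKT-mTOR arm 1 fell, 0 rose and 22 did not pass, with 8 at unadjusted p under 0.05 and a median log2 fold change of -0.09. Akt2, the AKT kinase of insulin response, was at 52.7, 90.2 and 97.5 CPM in the glands and at 37.7, 35.8, 27.98 and 33.1 CPM in the tumours (log2 -1.25, SE 0.28, edgeR adjusted p = 0.0367). Its edgeR call was lost without gland 2 (0.112) or 3 (0.133) and without tumour 1a (0.0677), 1b (0.0947) or 3 (0.0926). No filter on low counts also lost it (0.0920). Between 0.654% and 5.9% of all genes passed in these fits. Of 18 adaptor and RAS-MAPK genes 0 passed in edgeR, with 5 at unadjusted p under 0.05. DESeq2 called 3 of them and 24.1% of all genes, and limma-voom 1 and 10.8%. Ptpn1, a phosphatase of the insulin receptor, had the smallest p of that list (log2 1.24, SE 0.33, edgeR adjusted p = 0.0588).

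In the adenosquamous tumours 7 of the 57 genes of these 5 lists passed (12.3%, beside 10.4% of all genes). Irs3, Stc2, Ghr, Stat5a and Pik3r1 fell, and Pappa and Ptpn1 rose; Stat5a, Pik3r1 and Pappa were named after their values were seen. Pappa, the gene of the protease PAPP-A, was at 4.24, 3.03 and 5.17 CPM in the glands, 31.3 and 19.0 CPM in tumours 1a and 1b, and 0.788 and 1.36 CPM in tumours 3 and 4. It rose by 2.55 on the log2 scale in the adenosquamous tumours (SE 0.41, edgeR adjusted p = 0.0238). Igfbp4, whose product PAPP-A cuts, was also above every gland in these tumours and not in the other 2. None of the 7 genes passed in edgeR without gland 3, where 0 of 14034 genes passed. Fits without tumour 1a or 1b leave 1 adenosquamous library, so no call was read from them. Without gland 1, Irs3 (edgeR adjusted p = 0.0520), Pappa (0.0555), Ptpn1 (0.0608) and Pik3r1 (0.0733) did not pass either, and 4.2% of all genes did. Without gland 2, Ptpn1 did not pass (edgeR adjusted p = 0.0738), and 10.8% of all genes did. Irs3 was also lost in limma-voom (0.0789).

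**Figure D5:**
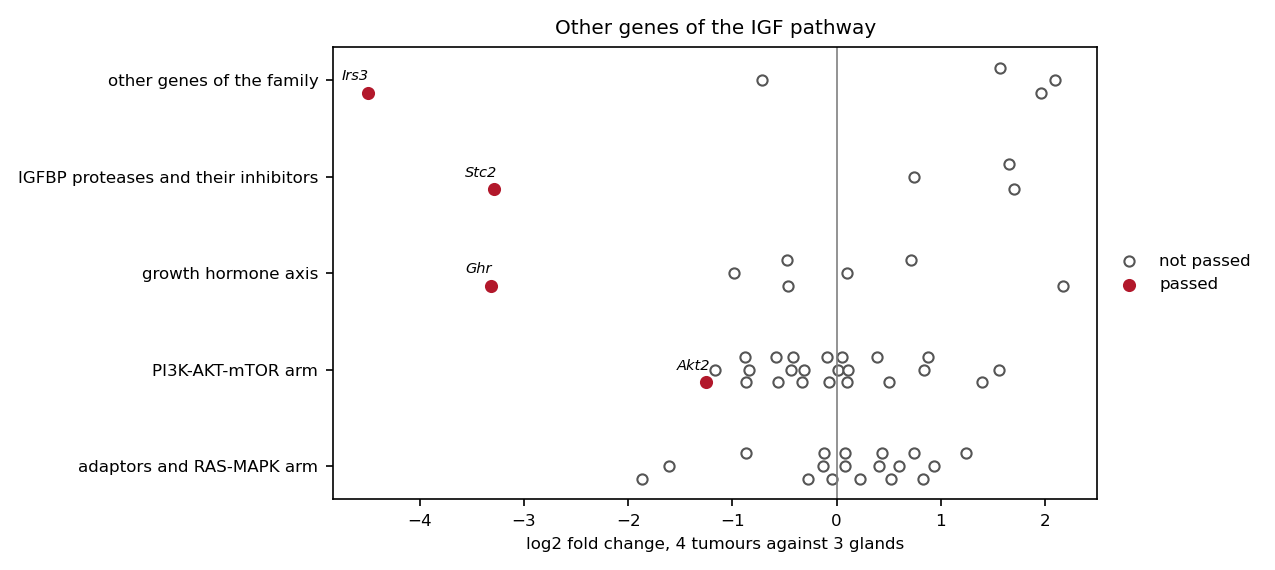
Log2 fold change of each tested gene of 5 lists around the members, 4 tumours against 3 glands; each point is a gene and filled points passed in edgeR. Irs3, Stc2, Ghr and Akt2 passed, all lower in tumours.

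The genes most like each member were taken by the root mean square difference of log2 CPM, centred per gene, over the 7 libraries, among 8504 genes. Igf1r was closest to Esd (0.20) and Ptpn12 (0.21), and Igf2r to Asah1 (0.16), a lysosomal ceramidase gene, and Abcc3 (0.16). Igfbp4 was closest to Serpinh1 (0.30), which encodes a collagen chaperone, and Fyn (0.36). Igfbp7 was closest to Cspg4 (0.28), a pericyte marker, and Tuba1a (0.29). The nearest genes to the members with a wide spread were farther off. For Igf1 they were Efemp1 (0.59), Rgcc (0.70) and Dpep1 (0.77), and for Igfbp3 Ccnd1 (0.61), the cyclin D1 gene, and Fen1 (0.69). Irs1 was closest to Ldhd (0.23), Igfbp5 to Rassf9 (0.50), Igfbp2 to Celsr1 (1.04) and Igfbp6 to Cmah (1.18). Among the members themselves the closest pairs were Igf1r and Igf2r (0.39) and Igfbp4 and Igfbp7 (0.80). These distances describe 7 libraries and have no test.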

How the data were processed

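Per the labels' protocols, Trizol RNA was treated with DNase and made into TruSeq v2 libraries, a kit that does not mark strand. STAR 2.5, RSEM 1.3, limma and build GRCm38 are credited to the submitters' processing notes. The sources used here give no annotation release, filter or strand option. The deposited values were read as the expected counts of the authors: per the file headers the column is TPM, but its sums differ between libraries (5148438 to 35631279) and most values are whole. Values were rounded. The members and gene lists were chosen with earlier results of these data known.

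Positions and exon lengths came from GENCODE M21 on GRCm38 (50376 of 50600 identifiers matched), and upstream sequences from RefSeq on GRCm38.p6 (10 of 10 members matched). All genes were fitted with edgeR 4.0.16 (R 4.3.3; TMM scaling, filterByExpr with minimum count 10 and minimum total 15, two-sided quasi-likelihood tests), with Benjamini-Hochberg adjusted p under 0.05 as the threshold. SE is the size of the log2 fold change divided by the square root of F. The method was tested on simulated data. Exact 95% binomial intervals of the mitochondrial shares reach at most 0.0413 points and cover counting error only, as do floors of 3 counts. The alternatives were DESeq2 1.42.0, limma-voom (limma 3.58.1), upper-quartile or median-ratio scaling, a 10 CPM filter or no filter, no mitochondrial genes, tumour types as separate groups, gland 2 as the only control, each library left out and, chosen after seeing the data, the label's number as a block.

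Named were all members, up to 4 genes per list that passed in tumours against glands (otherwise the 1 with the smallest p), and the 3 genes most like each member among genes of average log2 CPM of at least 3 with a proper symbol, of which the closest 1 to 3 are printed. Overlaps on the other strand touch exons of Igfbp7 (Polr2b) and Irs1 (Gm9747, at most 3 counts).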

Additional observations from a re-analysis of the deposited data

Results flagged for a closer look

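Igf1 in adenosquamous tumour 1a stood apart from the other tumours, at a log2 CPM of 5.45 against 1.11, 0.77 and 1.26 in tumours 1b, 3 and 4. Its gap to the nearest tumour was 0.895 of the range of the 4 tumours. Chance flags about 1 in 20 groups of this kind, and each of the 10 members was looked at. Tumour 1a also had the highest sums of fat cell, fibroblast, endothelial and lymphocyte markers among the tumours, the fibroblast sum being mostly Col1a1 and Col3a1. The same held for skeletal muscle, smooth muscle and myoepithelial, and basal epithelial markers, but not for luminal or macrophage markers. The part of these markers in the Igf1 value was not tested.

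Igfbp7 lay on opposite sides of the glands in the tumour types. Both adenosquamous tumours were above every gland, and the spindle cell and papillary tumours were below every gland. The difference of 2.97 on the log2 scale did not pass in edgeR (adjusted p = 0.121), ranging from 2.85 to 3.05 over 14 alternatives with adjusted p from 5.0e-06 to 0.425.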

How the results depend on the processing

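In tumours against glands, 1 member passed (8.47% of all genes). DESeq2 called 3 members (24.1% of all genes), as did the fit with tumour types as separate groups (17.7%). No filter called 2 (2.92%), and leaving out 1 library gave 0 to 2 (0.654% to 9.88%). With gland 2 as the only control, 1 gland is left, so no call was read from that fit. For the adenosquamous tumours 2 passed (10.4% of all genes) and DESeq2 called 4 (24.2%). The 10 CPM filter, under which Igfbp2 could not be tested, called 1 (15.2%). Leaving out 1 gland gave 0 to 2 members (0 to 10.8% of all genes). Between tumour types 0 passed (and 0.0% of all genes), DESeq2 called 4 (and 9.97% of all genes) and no filter called 6 (and 7.39% of all genes). Each fit without 1 gland called 0 members and 0 of all genes. Leaving out a tumour leaves 1 library in its group, so no call was read from those fits. Over all genes in tumours against glands, 1199 passed, 3403 in DESeq2, and 97 to 1351 with 1 library left out.

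Signs turned as follows, and none of these values passed. In tumours against glands, Igfbp4 was -0.55 in limma-voom, -0.94 with separate types, -0.23 with gland 2 alone and -0.39 (without tumour 1a) to 0.71 with 1 library left out. Igfbp7 was -0.59, -1.12 and -0.29 under the first 3 of these, and -0.44 to 0.43 with 1 library left out (-0.38, -0.44 and -0.28 without gland 1, tumour 1a or tumour 1b). In adenosquamous tumours, Igfbp6 was -0.58 in limma-voom and -2.77 (without tumour 1a) to 1.04 with 1 library left out (-0.37 without gland 1). Between tumour types the ranges with 1 library left out were -1.57 to 1.54 for Irs1 and -3.01 to 1.09 for Igfbp3, turning without the papillary tumour, and -3.60 to 1.43 for Igfbp2 and -2.96 to 0.57 for Igfbp5, turning without the spindle cell tumour. Irs3 ranged from -0.62 (without tumour 1a) to 1.28, and was -0.22 without the spindle cell tumour. The cause was not tested.

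Igfbp3 stayed higher in tumours under all 17 alternatives (log2 3.20 to 5.26) and passed in 8. Igfbp2 met the main filter through its tumour counts alone, so a higher value there was fixed in advance. In the 16 alternatives that could test it, Igfbp2 gave 3.82 to 7.47 and passed in 4. Igf1 stayed lower in all 17 (-5.90 to -2.88) and passed in 4. With the label's number as a replicate block, tumours 1a and 1b both taken as number 1, an alternative chosen after seeing the data, 0 members and 0 genes passed in tumours against glands (2 members and 3021 genes at unadjusted p under 0.05), with Igfbp3 at 3.20 (adjusted p = 0.118). Nothing says that a number pairs a gland with a tumour, and the deviations of same-numbered libraries from their group means correlated at -0.149 (1 and 1a), 0.007 (1 and 1b) and -0.036 (3 and 3) over 14149 genes. The adenosquamous tumours share only number 1 with the glands, so no such fit was made for them. The depth of gland 1 limits Igfbp2 and Igfbp6, whose 0 counts there allow up to 1.06 CPM.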
